A study of Mus musculus with 10 samples.

Results

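The genes described here are 47 cyclins, cyclin-dependent kinases (CDKs), CDK inhibitors, E2F factors, replication licensing genes and mitotic checkpoint genes, chosen by symbol from the 34591 genes with an expression value, and all 47 were found. They were grouped by the phase at which they act: 21 G1/S genes, 8 replication genes and 18 G2/M genes. Expression was measured by total RNA sequencing of male C57/BL6 mouse embryonic stem cells (mESCs, Bruce-4 line) in 10 libraries, 2 from each of 5 lines. The lines were the wild-type (WT) line, *Dnttip1* knockout (KO) clones D2A7 and D1E6, and *Elmsan1* KO clones E2E8 and E2G7. DNTTIP1 and ELMSAN1 are scaffold subunits of MiDAC, a mitotic histone deacetylase complex with HDAC1. All lines were kept in naive 2iL medium, which contains the GSK3 inhibitor CHIR 99021, the MEK inhibitor PD 0325901 and LIF. Each KO clone grew from a single CRISPR-edited cell, and WT was 1 line, so a clone's own history and the loss of its MiDAC subunit cannot be told apart within a clone.

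Progress through the cell cycle is driven by cyclins, which bind and activate CDKs. D-type cyclins with CDK4 and CDK6, and then E-type cyclins with CDK2, inactivate the pocket proteins RB1, RBL1 and RBL2 and thereby free E2F factors to transcribe genes for DNA replication. CDT1 loads the MCM helicase onto origins until geminin blocks it, cyclins A and B with CDK1 drive entry into mitosis, and the spindle checkpoint delays the separation of chromosomes until CDC20 activates the anaphase-promoting complex (APC/C). mESCs are known for a short G1 phase. MiDAC was found in mitotically arrested cells and has been linked to cyclin A2, and the comparisons ask how the mRNAs of these genes stood when a MiDAC subunit was lost.

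The fragments behind each library, recovered from the FPKM values (fragments per exon length and library size), ranged from 31098275 to 86463841, with the fewest in WT. *Dnttip1* mRNA was at 8.45 and 8.35 FPKM in WT, at 4.57 and 4.55 in D2A7 and at 2.58 and 2.60 in D1E6, against 6.43 to 7.77 in the *Elmsan1* KO libraries. *Elmsan1*, listed under the older symbol *C130039O16Rik*, was at 5.73 and 5.34 FPKM in WT and between 4.62 and 5.13 in the *Elmsan1* KO libraries, so its mRNA does not check those labels. In the *Dnttip1* KO libraries it was at 7.78 to 8.67 FPKM. The summed level of 7 pluripotency markers was 973 to 1240 FPKM, and that of 6 fibroblast markers was at most 0.564 FPKM. Of 4 markers of primed or differentiating cells, *Nes* averaged 4.17 FPKM in WT, 12.7 in D2A7, 8.56 in D1E6, 5.96 in E2E8 and 8.99 in E2G7. The other 3 averaged less in every clone than in WT, with *T* at 0.591 FPKM in WT and 0.193 to 0.318 in the clones, *Fgf5* at 0.0647 and 0.00697 to 0.0409, and *Pax6* at 0.0218 and 0.00467 to 0.0199. In bulk RNA, fewer cells in a phase and less RNA per cell cannot be told apart. Apart from the RNA, the paper reported an unaltered cell cycle profile by flow cytometry and an unaltered proliferation rate in mESCs lacking either subunit. It also reported expression of *Ccna2*, *Cdkn1a* and *Cdkn1b* as unaffected in both knockouts.

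Most of these genes are strongly transcribed in mESCs. In every library 33 of the 47 were at 10 FPKM or more and 44 were at 1 FPKM or more, while *Ccnd2*, *Ccna1* and *Cdkn2c* stayed under 1.1 FPKM in all. The highest in WT were *Mcm3*, *Cdk4*, *Mcm5* and *Mcm2*. The 2 libraries of a line lay close together, with a median SD within a line of 0.0345 on the log2 scale over the 47 genes and 0.0426 over the 5913 genes that averaged 10 FPKM or more. The range over the 5 line means was wider, with medians of 0.378 and 0.342. The lines were thus further apart than the libraries of a line, both for these genes and for other genes of their level.

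**Figure D1:**
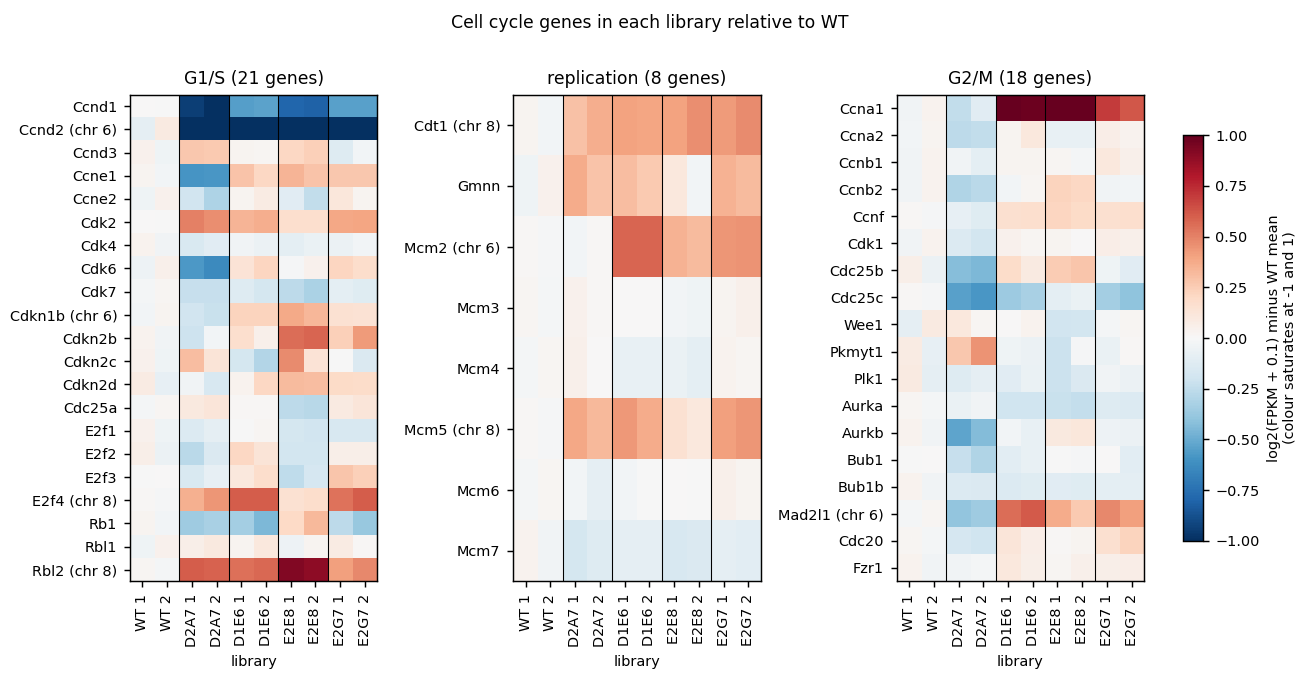
Colour shows log2(FPKM + 0.1) minus the WT mean for the 47 genes (rows) in each of the 10 libraries (columns), split by phase, with black lines between cell lines and the chromosome given for genes on 6 and 8. *Ccnd1* and *Ccnd2* are blue in all 8 KO libraries, *E2f4*, *Rbl2*, *Cdt1* and *Mcm5* are red in all 8, and D2A7 is blue where other clones are pale or red for *Ccne1*, *Cdk6* and *Mad2l1*.

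Across the comparison of each knockout with WT, only the D-type cyclin genes *Ccnd1* and *Ccnd2* met the rule used by the study for a differentially expressed gene, a fold change of at least 1.5 with an unadjusted p under 0.01 (limma on log2(FPKM + 0.1)). Both fell in both knockouts. In *Dnttip1* KO mESCs these were 2 of 47 genes (4.26%), against 6.51% of the 17434 genes tested called either way and 3.25% called lower. In *Elmsan1* KO mESCs they were again 2 of 47, against 6.43% of 17212 genes called either way and 3.68% lower. The share called was thus below that of all genes in both comparisons, which share the same 2 WT libraries. It was above that of genes averaging 10 FPKM or more, of which 3.11% and 2.86% were called. With only 2 genes called, the count does not set the 47 genes apart from either background. On the recovered fragments voom called 3 of the 47 genes in *Dnttip1* KO (*Rbl2* in addition, at 0.62) and 2 in *Elmsan1* KO. The share of all genes called by voom was not counted.

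Smaller changes were counted by an adjusted p under 0.05 at any fold, which is what "rose" and "fell" mean below. In *Dnttip1* KO mESCs 6 genes rose (*Cdk2*, *E2f4*, *Rbl2*, *Cdt1*, *Gmnn* and *Mcm5*) and 3 fell (*Ccnd1*, *Ccnd2* and *Cdc25c*). These 9 of 47 (19.1%) stand beside 9.47% of all genes (5.19% up, 4.28% down) and 12% of genes averaging 10 FPKM or more. In *Elmsan1* KO mESCs 5 rose (*Ccne1*, *Cdt1*, *Mcm2*, *Ccnf* and *Mad2l1*) and *Ccnd1* and *Ccnd2* fell, 7 of 47 (14.9%) beside 10.5% (5.62% up, 4.91% down) and 14.1%. The median absolute log2 fold change of the 47 genes was 0.12 and 0.11 in the 2 knockouts, against 0.21 over all genes tested in *Dnttip1* KO and 0.13 over its more highly expressed genes. When the similarity of libraries from 1 clone was estimated (within-clone correlations of 0.704 and 0.768), none of the 47 genes kept an adjusted p under 0.05 in either knockout. Few genes of any kind did, 57 of 17434 in *Dnttip1* KO and 64 of 17212 in *Elmsan1* KO, so the absence does not mark these genes out. *Ccnd1* and *Ccnd2* still met the fold and p rule in both, as did 538 and 486 of all genes. Without either WT library none of the 47 had an adjusted p under 0.05 in either knockout. With 4 KO and 2 WT libraries an exact permutation test of single libraries cannot go below p = 0.0667. That limit takes libraries of 1 clone as independent, and with lines as the unit it would be higher.

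*Ccnd1*, on chromosome 7 (NCBIM37, 152115836 to 152125774, minus strand), encodes cyclin D1, which with CDK4 and CDK6 opens the G1/S transition. It was at 54.7 and 54.5 FPKM in WT. It was at 28.4 and 27 FPKM in D2A7, at 37.2 and 37.7 in D1E6, at 31.5 and 31.2 in E2E8, and at 37.5 in both libraries of E2G7. All 8 KO libraries lay below both WT libraries with no overlap. In *Dnttip1* KO mESCs its log2 fold change was -0.76 (SE 0.158, adjusted p = 0.0385), with means of 32.6 ± 5.68 (SD, n = 4) against 54.6 ± 0.122 FPKM (SD, n = 2). In *Elmsan1* KO mESCs it was -0.67 (SE 0.098, adjusted p = 0.0127), with a mean of 34.4 ± 3.58 FPKM (SD, n = 4). The adjusted p was 0.122 and 0.0778 with an estimated correlation within clones. Leaving out either WT library ended the *Dnttip1* KO call (adjusted p = 0.224 and 0.202) at log2 fold changes of -0.76, and the *Elmsan1* KO call held in all 6 such fits.

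By clone, *Ccnd1* fell in all 4, and in 2 of them, D2A7 (-0.98) and E2E8 (-0.80), by enough to be called. In D1E6 and E2G7 the log2 difference was -0.54 in each. D2A7 against D1E6 gave -0.44 and E2E8 against E2G7 gave -0.26 on the log2 scale, both with adjusted p under 0.05. The 2 clones of each genotype thus differed in how far *Ccnd1* fell.

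*Ccnd2*, on chromosome 6 (NCBIM37, 127075797 to 127101066, minus strand), encodes cyclin D2 and is barely transcribed in these cells. It was at 0.509 and 0.587 FPKM in WT, at 0.138 and 0.102 in D2A7, at 0.101 and 0.147 in D1E6, at 0.0299 and 0.0440 in E2E8, and at 0.129 and 0.120 in E2G7. Those levels rest on 87 and 128 fragments in the WT libraries and 13 to 59 in the KO libraries, although the KO libraries were deeper. No KO library reached the WT levels. *Dnttip1* KO mESCs had a log2 fold change of -1.55 (SE 0.19, adjusted p = 0.00948, and 0.167 with an estimated correlation). *Elmsan1* KO mESCs had one of -1.88 (SE 0.301, adjusted p = 0.0156, and 0.159 with an estimated correlation). Because the pseudocount weighs on so low a gene, the fold depended on it, at -0.46 and -0.52 with a pseudocount of 1 and at -2.16 and -2.97 with voom on the recovered fragments. It was called lower in each of the 4 clones, though in none with a pseudocount of 1, which also ended both knockout calls, and E2E8 was lower than E2G7 (-0.71), a call that ended in 4 of 10 fits with 1 library left out (-0.64 to -0.79).

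*Ccnd3*, the remaining D-type cyclin gene, did not fall in either knockout. It was at 47.3 and 44.8 FPKM in WT and at 42.1 to 55.6 FPKM in the KO libraries, and its adjusted p passed in neither knockout (log2 fold changes 0.15 and 0.07). It rose in D2A7 (0.27) and E2E8 (0.22), the same clones in which *Ccnd1* was lowest. In WT there was 1.16 and 1.22 times as much *Ccnd1* as *Ccnd3* per length, whereas in all 8 KO libraries *Ccnd3* exceeded *Ccnd1*, with ratios of 0.490 to 0.892. The summed FPKM of the 3 D-type cyclins was 99.9 to 102 in WT and 79.8 to 85.6 in the KO libraries.

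**Figure D2:**
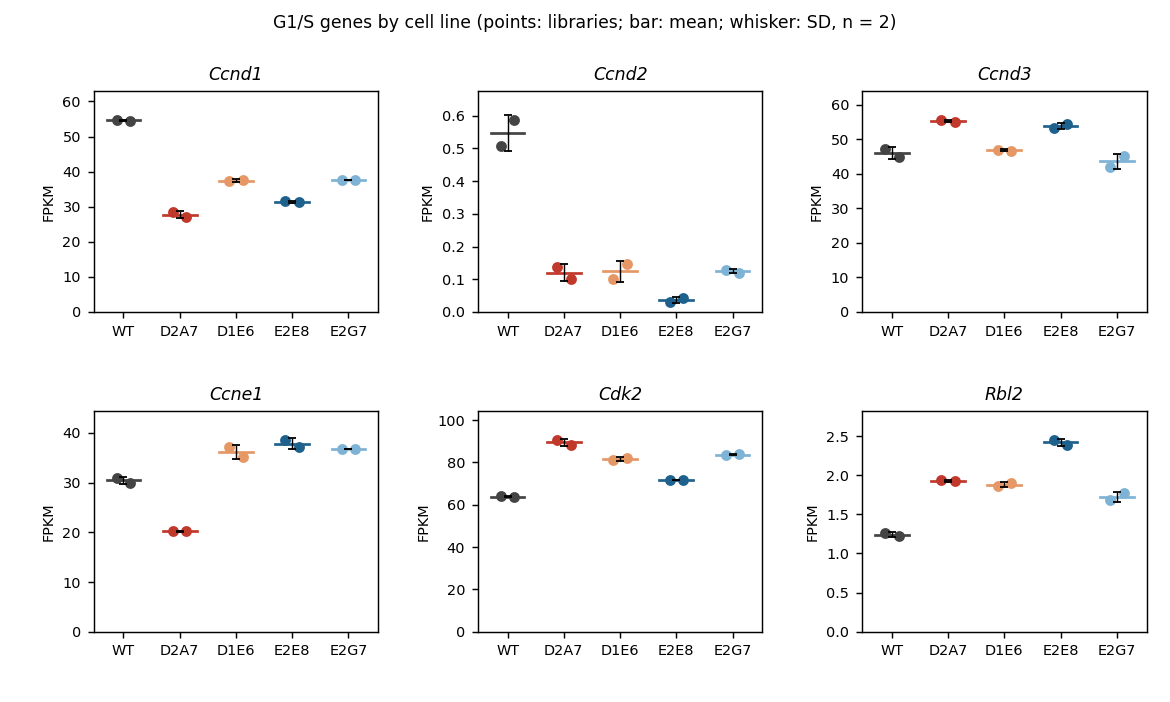
FPKM of 6 G1/S genes in each cell line, with 1 point per library, a bar at the mean and a whisker for the SD (n = 2), each axis starting at 0. *Ccnd1* and *Ccnd2* sit below WT in all 4 clones, *Ccnd3* does not, *Ccne1* is lower than WT in D2A7 alone (20.2 and 20.3 FPKM), and *Cdk2* and *Rbl2* sit above WT in all 4.

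The E-type cyclins, which activate CDK2 for S-phase entry, split the clones. *Ccne1* was at 31.0 and 30.0 FPKM in WT, at 20.2 and 20.3 in D2A7, at 37.2 and 35.2 in D1E6, at 38.6 and 37.1 in E2E8 and at 36.8 in both libraries of E2G7. It fell in D2A7 (-0.58) and rose in the other 3 clones (0.25 to 0.31). The knockout comparison gave -0.17 (adjusted p = 0.749) for *Dnttip1* KO and 0.29 (adjusted p = 0.0156, and 0.232 with an estimated correlation) for *Elmsan1* KO. *Ccne2* was at 8.54 to 11.5 FPKM and passed in neither knockout, and it fell in D2A7 (-0.25) and E2E8 (-0.18).

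Among the kinases, *Cdk2*, the partner of cyclins E and A, was at 63.9 and 63.7 FPKM in WT and at 71.7 to 90.6 FPKM in the KO libraries, above WT in all 8. It rose in *Dnttip1* KO mESCs (0.42, adjusted p = 0.015) and not in *Elmsan1* KO mESCs (0.28). The adjusted p of the former was 0.101 with an estimated correlation within clones. *Cdk4*, the abundant partner of cyclin D, stayed at 133 to 152 FPKM and passed in neither knockout. *Cdk6*, its less abundant counterpart, was at 6.02 and 6.46 FPKM in WT and at 4.16 and 3.98 in D2A7, and at 6.20 to 7.27 in the 6 libraries of the other clones. D2A7 was the only clone in which it was called (-0.60), a call that ended without WT replicate 2 (-0.55) or D2A7 replicate 2 (-0.57), and D2A7 differed from D1E6 by -0.78. *Cdk7*, the CDK-activating kinase, fell in each of the 4 clones, with log2 differences of -0.11 to -0.29, and passed in neither knockout.

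The CDK inhibitors passed in neither knockout, though some differed from WT by clone. *Cdkn1b*, which encodes p27 and holds CDK2 inactive, was at 24.0 and 25.0 FPKM in WT, at 21.4 and 21.0 in D2A7, at 28.6 in both libraries of D1E6, at 31.8 and 30.8 in E2E8 and at 27.3 and 27.1 in E2G7. It was below WT in D2A7 (-0.21) and above it in the other 3 clones (0.15 to 0.35), all 4 with adjusted p under 0.05, and passed in neither knockout (0.01, adjusted p = 0.982, and 0.25, adjusted p = 0.111). It lies on chromosome 6, and after centring each library by the median of each chromosome it was at -0.13 in D1E6, -0.01 in E2E8 and -0.08 in E2G7. *Cdkn2b*, *Cdkn2c* and *Cdkn2d*, which inhibit CDK4 and CDK6, were at 0.460 to 7.78 FPKM and passed in neither knockout. Their log2 fold changes were -0.01, -0.01 and 0.01 in *Dnttip1* KO. In *Elmsan1* KO they were 0.45, 0.11 and 0.25 (adjusted p = 0.0785, 0.757 and 0.112). *Cdkn2b* rose in E2E8 (0.57) and E2G7 (0.33), and *Cdkn2d* in E2E8 (0.31). *Cdkn1a*, which encodes p21 and belongs to the wider G1/S list, averaged 33.2 FPKM in WT, 34.9 in D2A7, 31.9 in D1E6, 47.2 in E2E8 and 36.5 in E2G7. It passed in neither knockout (0.01 and 0.32) but rose in E2E8 (0.51) and E2G7 (0.14).

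Of the E2F factors, the activators *E2f1*, *E2f2* and *E2f3* lay within 1.53 to 12.8 FPKM and passed in neither knockout. By clone, *E2f1* fell in D2A7 (-0.11), E2E8 (-0.18) and E2G7 (-0.16), and *E2f3* rose in D1E6 (0.14) and E2G7 (0.26) and fell in E2E8 (-0.21). *E2f4*, which acts with pocket proteins as a repressor, was at 43.0 and 42.3 FPKM in WT, at 54.7 and 57.9 in D2A7, at 64.8 in both libraries of D1E6, at 47.5 and 48.3 in E2E8 and at 62.1 and 64.8 in E2G7. It rose in *Dnttip1* KO (0.50, adjusted p = 0.0214, and 0.118 with an estimated correlation) and was called in D1E6 (0.60). Its partner *Rbl2*, encoding p130, was at 1.26 and 1.22 FPKM in WT, at 1.94 and 1.92 in D2A7, at 1.86 and 1.90 in D1E6, at 2.45 and 2.39 in E2E8 and at 1.68 and 1.77 in E2G7. It rose in *Dnttip1* KO (0.58, adjusted p = 0.0197, and 0.222 with an estimated correlation), was called in D2A7 (0.60) and E2E8 (0.91), and gave 0.68 (adjusted p = 0.073) in *Elmsan1* KO. The D2A7 call of *Rbl2* ended without WT replicate 2 (0.58). *Rb1*, *Rbl1* and *Cdc25a*, the phosphatase that activates CDK2, passed in neither knockout. *Rbl1* was at 7.91 to 8.83 FPKM and passed in no clone, and *Cdc25a*, at 30.0 to 39.5 FPKM, fell in E2E8 (-0.27) and rose in D2A7 and E2G7 (0.11 in both). *Rb1*, at 1.77 to 3.10 FPKM, fell in D2A7, D1E6 and E2G7 (-0.34, -0.39 and -0.32) and rose in E2E8 (0.26).

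Both *E2f4* and *Rbl2* lie on chromosome 8, whose genes were higher as a whole in every clone. Over the 663 chromosome 8 genes other than these that averaged 1 FPKM or more, the median log2 difference from WT was 0.37 in D2A7, 0.37 in D1E6, 0.35 in E2E8 and 0.35 in E2G7, with 88.8 to 90.3% of those genes above WT. Over 539 genes of chromosome 6 it was -0.08 in D2A7 but 0.42, 0.39 and 0.29 in D1E6, E2E8 and E2G7. Of the 47 genes, 4 are on chromosome 8 (*E2f4*, *Rbl2*, *Cdt1* and *Mcm5*) and 4 on chromosome 6 (*Ccnd2*, *Cdkn1b*, *Mcm2* and *Mad2l1*). All 4 on chromosome 8 and 0 of 4 on chromosome 6 rose in *Dnttip1* KO, against 2 of the 39 genes on other chromosomes (*Cdk2* and *Gmnn*). In *Elmsan1* KO 1 of 4 on chromosome 8 (*Cdt1*) and 2 of 4 on chromosome 6 (*Mcm2* and *Mad2l1*) rose. On other chromosomes 2 of 39 rose there (*Ccne1* and *Ccnf*). Of all genes, 5.19% rose in *Dnttip1* KO and 5.62% in *Elmsan1* KO.

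After centring by chromosome, the genes with an adjusted p under 0.05 went from 9 to 3 in *Dnttip1* KO (*Cdk2*, *Gmnn* and *Ccnd2*). They went from 7 to 3 in *Elmsan1* KO (*Ccne1*, *Ccnd1* and *Ccnd2*). The genes no longer passing included *Ccnd1* (chromosome 7) and *Cdc25c* (chromosome 18) in *Dnttip1* KO and *Ccnf* (chromosome 17) in *Elmsan1* KO. The share of all genes passing after centring was not counted. The log2 fold changes in *Dnttip1* KO became 0.13 for *E2f4*, 0.21 for *Rbl2*, -0.01 for *Cdt1* and 0.01 for *Mcm5*. In *Elmsan1* KO those of *Cdt1*, *Mcm2* and *Mad2l1* became 0.09, 0.08 and 0.08. *Ccnd2* moved the other way, to -1.71 and -2.19, and *Ccnd1*, on chromosome 7, stayed called at -0.79 and -0.65 (adjusted p = 0.057 and 0.0212). *Rbl2* in E2E8 kept 0.55 above its chromosome (adjusted p = 0.000376) without reaching the fold of the call.

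**Figure D3:**
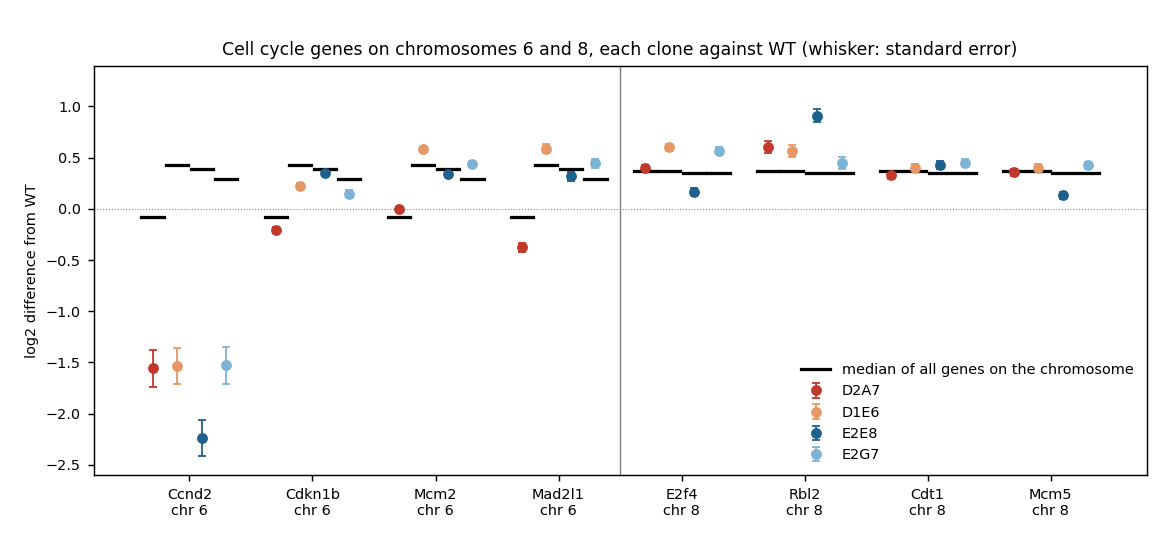
Log2 difference from WT in each clone for the 8 genes on chromosomes 6 and 8 (points, with standard errors), beside the median of all other genes on the same chromosome in that clone (black bars). *Mcm2*, *Cdt1* and *Mcm5* lie on or near the bars in most clones, *Mad2l1* is below its bar in D2A7, *Rbl2* is above its bar in E2E8, and *Ccnd2* is far below its bar in all 4.

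The replication genes held the most abundant of these mRNAs. *Cdt1*, the licensing factor, was at 92.2 and 89.2 FPKM in WT, at 111 and 117 in D2A7, at 120 and 119 in D1E6, at 120 and 125 in E2E8 and at 122 and 126 in E2G7. It rose in both knockouts, by log2 fold changes of 0.36 (adjusted p = 0.014) and 0.44 (adjusted p = 0.00594), and its adjusted p was 0.149 and 0.135 with an estimated correlation within clones. Every KO library was above both WT libraries, by about as much as the rest of chromosome 8. *Gmnn*, encoding the CDT1 inhibitor geminin, rose in *Dnttip1* KO (0.31, adjusted p = 0.0223, and 0.262 with an estimated correlation), with 45.1 ± 1.47 FPKM (SD, n = 4) against 36.4 ± 1.47 (SD, n = 2). In *Elmsan1* KO it was at 0.19, with E2G7 (0.33) above E2E8 (0.04). The ratio of *Cdt1* to *Gmnn* was 2.38 to 2.60 in WT, 2.35 to 2.78 in D2A7, D1E6 and E2G7, and 3.05 and 3.5 in E2E8.

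The 6 MCM genes encode the subunits of 1 hexameric helicase. *Mcm2* was at 141 and 138 FPKM in WT, at 137 and 141 in D2A7, at 209 in both libraries of D1E6, at 178 and 174 in E2E8, and at 189 and 190 in E2G7. It rose in *Elmsan1* KO (0.39, adjusted p = 0.0127, and 0.153 with an estimated correlation), and in *Dnttip1* KO the 2 clones parted (-0.01 in D2A7 and 0.58 in D1E6). The call of *Mcm2* between them (-0.59) ended without D2A7 replicate 1 (-0.57) and after centring by chromosome (-0.17). *Mcm5* was at 142 and 140 FPKM in WT and at 152 to 191 in the KO libraries, and rose in *Dnttip1* KO (0.38, adjusted p = 0.00984, and 0.13 with an estimated correlation). *Mcm3*, *Mcm4* and *Mcm6* had log2 fold changes of -0.04 to 0.02 in the 2 knockouts and *Mcm7* was at -0.12 in both, and none of these 4 passed there. *Mcm7* fell in each of the 4 clones, with log2 differences of -0.09 to -0.15. The subunit genes that passed in a knockout comparison were the pair on chromosomes 6 and 8. As a share of the summed FPKM of the 6 genes, *Mcm2* went from 17.8 to 18.1% in WT to 21.5 to 23.8% in D1E6, E2E8 and E2G7 and stayed at 16.9 to 17.6% in D2A7. *Mcm5* went from 18.1% to between 18.9 and 22.7%, and the sum itself from 773 and 782 to between 800 and 882.

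**Figure D4:**
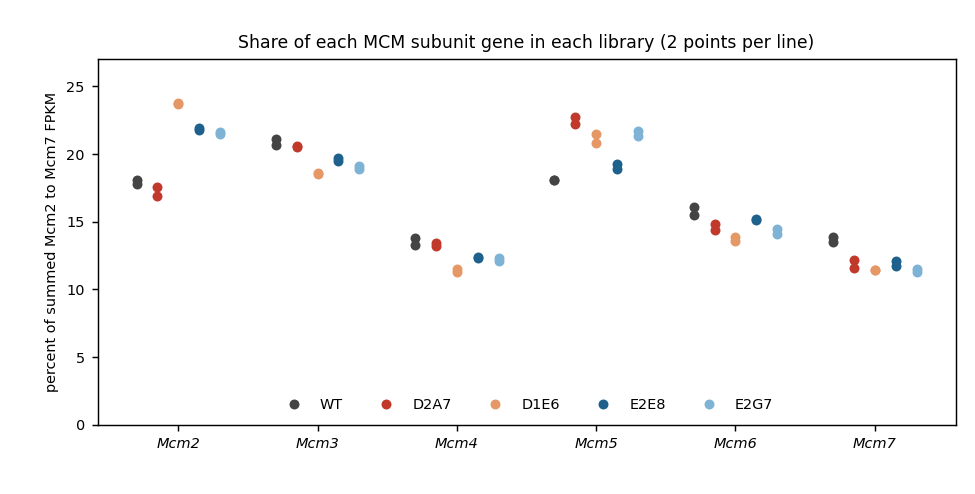
Share of each MCM gene in the summed FPKM of *Mcm2* to *Mcm7* (percent, axis from 0), with 2 points per cell line. *Mcm2* is near 18% in WT and D2A7 and above 21% in the other clones, *Mcm5* is above its WT share of 18.1% in all clones, and *Mcm3*, *Mcm6* and *Mcm7* are below both WT libraries in every clone.

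The promoters of these genes are shown to set the subunits that rose beside one that did not, with a mitotic cyclin for contrast. The sequences are from RefSeq on GRCm38.p6, 250 bases before to 50 bases after a start, given 5′ to 3′ on the strand of the gene. Capitals mark 3 motifs searched on both strands: an E2F motif (TTTCCCGC, TTTCGCGC, TTTGCCGC or TTTGGCGC), the CHR element (TTTGAA) bound by the MuvB complex that represses and then activates late cell cycle genes, and CCAAT, bound by NF-Y. *Mcm2* is at chr6:88898731-88899030 (minus strand), *Mcm5* at chr8:75109259-75109558 (plus strand), *Mcm6* at chr1:128359656-128359955 (minus strand) and *Ccnb2* at chr9:70421505-70421804 (minus strand).
Mcm2: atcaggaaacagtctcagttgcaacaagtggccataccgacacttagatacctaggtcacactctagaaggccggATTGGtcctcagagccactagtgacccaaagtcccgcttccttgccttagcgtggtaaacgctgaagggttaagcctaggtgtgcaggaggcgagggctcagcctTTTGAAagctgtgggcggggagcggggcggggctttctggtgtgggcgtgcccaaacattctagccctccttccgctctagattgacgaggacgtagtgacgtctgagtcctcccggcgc
Mcm5: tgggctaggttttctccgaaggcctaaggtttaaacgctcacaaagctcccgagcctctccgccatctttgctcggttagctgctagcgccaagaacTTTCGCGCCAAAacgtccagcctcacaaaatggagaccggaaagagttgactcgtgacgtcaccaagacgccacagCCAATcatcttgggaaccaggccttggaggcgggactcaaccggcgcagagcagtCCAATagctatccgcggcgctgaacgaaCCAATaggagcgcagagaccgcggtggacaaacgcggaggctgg
Mcm6: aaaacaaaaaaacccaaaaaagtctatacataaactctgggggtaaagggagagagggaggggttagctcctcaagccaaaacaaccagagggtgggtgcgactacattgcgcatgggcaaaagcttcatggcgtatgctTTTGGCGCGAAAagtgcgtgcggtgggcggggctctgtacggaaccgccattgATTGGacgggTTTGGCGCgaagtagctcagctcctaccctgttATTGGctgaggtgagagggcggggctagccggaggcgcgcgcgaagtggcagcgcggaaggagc
Ccnb2: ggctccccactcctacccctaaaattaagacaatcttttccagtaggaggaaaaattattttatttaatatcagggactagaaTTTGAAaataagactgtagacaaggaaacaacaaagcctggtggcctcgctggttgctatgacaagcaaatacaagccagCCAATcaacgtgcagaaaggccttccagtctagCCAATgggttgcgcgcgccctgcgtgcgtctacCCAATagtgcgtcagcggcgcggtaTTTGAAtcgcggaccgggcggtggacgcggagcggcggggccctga
*Mcm5*, which rose, and *Mcm6*, which did not, both hold E2F matches that overlap on opposite strands, at -153 and -149 for *Mcm5* and at -110 and -106 for *Mcm6*, counted from the start, and *Mcm6* has another at -47. *Mcm2* holds none of the E2F strings searched. *Ccnb2* holds CHR matches at -167 and 5 and CCAAT at -87, -54 and -21. A match is a description of the letters only.

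A promoter was listed for 35 of the 47 genes, and not for *Mcm4*, *Cdc25c*, *Ccnd1*, *Pkmyt1*, *Ccne2*, *E2f4*, *Ccna2*, *Gmnn*, *Wee1*, *Rb1*, *Aurkb* and *Ccnd2*. An E2F string was in the promoter of 5 of 6 replication genes (*Cdt1*, *Mcm3*, *Mcm5*, *Mcm6* and *Mcm7*), 5 of 16 G1/S genes and 1 of 13 G2/M genes (*Cdk1*), against 2.6% of 27025 genes. The CHR element was in 7 of 13 G2/M genes (*Ccnb2*, *Ccnf*, *Cdk1*, *Plk1*, *Aurka*, *Bub1b* and *Cdc20*), 4 of 16 G1/S genes and 1 of 6 replication genes, against 20.2% of all. CCAAT was in 12 of 13 G2/M genes, 5 of 6 replication genes and 8 of 16 G1/S genes, against 41.1%. Genes with an E2F string were found among those that rose and those that did not: of the 5 replication genes with one, *Cdt1* and *Mcm5* rose in *Dnttip1* KO and *Mcm3*, *Mcm6* and *Mcm7* did not pass.

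Among the G2/M genes, the cyclins of mitosis were close to WT in both knockouts. *Ccna2*, encoding the cyclin A2 that has been found with MiDAC, was at 78.8 and 81.9 FPKM in WT, at 67.0 and 67.8 in D2A7, at 82.0 and 86.6 in D1E6, at 76.1 in both libraries of E2E8 and at 84.3 and 82.5 in E2G7. It passed in neither knockout (-0.09, adjusted p = 0.66, and -0.01, adjusted p = 0.918), and fell in D2A7 (-0.25, adjusted p = 0.000583). *Ccnb1* stayed at 90.3 to 104 FPKM and passed in no comparison. *Ccnb2* was at 49.6 to 71.3 FPKM and passed in neither knockout, but it fell in D2A7 (-0.29) and rose in E2E8 (0.21). *Ccnf*, at 47.5 to 60.0 FPKM, rose in *Elmsan1* KO (0.18, adjusted p = 0.0437, and 0.391 with an estimated correlation). *Cdk1*, their kinase, stayed at 43.0 to 51.0 FPKM and fell in D2A7 (-0.16).

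*Ccna1*, the germline A-type cyclin, on chromosome 3 (NCBIM37, 54849391 to 54858977, minus strand), was nearly silent and varied most between clones. It was at 0.170 and 0.184 FPKM in WT, at 0.133 and 0.156 in D2A7, at 0.501 and 0.445 in D1E6, at 0.88 and 1.04 in E2E8 and at 0.349 and 0.325 in E2G7. These levels rest on 8 and 11 fragments in WT and 13 to 110 in the KO libraries. It was called higher in D1E6 (1.05), E2E8 (1.93) and E2G7 (0.66) and not in D2A7 (-0.18). The D1E6 and E2G7 calls ended with a pseudocount of 1 (0.32 and 0.18), and the E2G7 call also with voom (0.86, adjusted p = 0.0695) and without E2G7 replicate 1 (0.62). It passed in neither knockout (0.43 and 1.30), and the clones of each genotype differed (-1.23 between D2A7 and D1E6, 1.27 between E2E8 and E2G7).

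The CDC25 phosphatases and the WEE1 and PKMYT1 kinases set the timing of CDK1 activation. *Cdc25c* was at 14.7 and 14.4 FPKM in WT, at 9.94 and 9.70 in D2A7, at 11.3 and 11.6 in D1E6, at 13.6 and 13.9 in E2E8 and at 11.5 and 11 in E2G7. It fell in *Dnttip1* KO (-0.45, adjusted p = 0.0344, and 0.154 with an estimated correlation) and not in *Elmsan1* KO (-0.22). All 8 KO libraries were below both WT libraries. *Cdc25b* was at 4.33 to 7.23 FPKM, fell in D2A7 (-0.44) and rose in E2E8 (0.27). *Wee1*, at 22.6 to 27.8 FPKM, and *Pkmyt1*, at 15.9 to 25.2 FPKM, passed in neither knockout, though *Wee1* fell in E2E8 (-0.19) and *Pkmyt1* rose in D2A7 (0.36).

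*Mad2l1*, whose product MAD2 inhibits CDC20 until chromosomes are attached, lies on chromosome 6. It was at 61.9 and 63.4 FPKM in WT, at 47.6 and 48.9 in D2A7, at 92.4 and 96.0 in D1E6, at 81.1 and 75.2 in E2E8 and at 87.5 and 83.4 in E2G7. It rose in *Elmsan1* KO (0.38, adjusted p = 0.0209, and 0.252 with an estimated correlation). In *Dnttip1* KO the clones moved in opposite directions, with D2A7 at -0.38 and D1E6 called at 0.59, and D2A7 differed from D1E6 by -0.96. After centring by chromosome D1E6 was at 0.23 above WT and D2A7 differed from D1E6 by -0.55. The D1E6 call ended without WT replicate 1 (0.57) or D1E6 replicate 2 (0.56). The other spindle checkpoint genes, *Bub1* and *Bub1b*, stayed at 36.3 to 51.9 FPKM and passed in neither knockout, with *Bub1b* lower in each clone by log2 differences of -0.10 to -0.14. *Plk1*, *Aurka* and *Aurkb*, the mitotic kinases, and *Cdc20* and *Fzr1*, the activators of the APC/C, passed in neither knockout. *Aurkb* fell in D2A7 (-0.48), to 20.9 and 22.3 FPKM from 30.9 and 29.4.

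By phase and clone, the G2/M genes of D2A7 stood lowest. In D2A7 11 of the 18 G2/M genes (61.1%) fell and 1 rose, against 22.3% of all 17868 genes lower and 27.2% higher, with a median log2 difference of -0.17 against 0.04 over all genes. The count of lower genes was 10 to 14 under the other settings and 10 to 12 when 1 library was left out. In the other clones 3 or 4 of the 18 fell, beside 20.8% of all genes in D1E6, 24.4% in E2E8 and 20.2% in E2G7, and 3 to 5 rose, beside 19.9%, 27.6% and 18.2%. D2A7 was below D1E6, the clone of the same genotype, in 12 of 18, against 18.9% of all genes and 47.6% of the 21 G1/S genes. A further 29 G2/M genes gave 14 lower and 2 higher in D2A7, 7 and 5 in D1E6, 12 and 6 in E2E8, and 5 and 7 in E2G7, so the share lower was above that of all genes in E2E8 (41.4%) as well as in D2A7 (48.3%). The changes were small, and limma called 0 of the 18 in D2A7, where 16.3% of all genes were called. Voom also called 0, and its share over all genes was not counted. An unadjusted p under 0.05 was found for 12 of the 18, a share that was not counted over all genes. Of the markers of primed or differentiating cells, *Nes* was highest in D2A7 and *T*, *Fgf5* and *Pax6* were below their WT means, and their part in this was not tested.

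Of the 21 G1/S genes, 5 were higher and 10 lower in D2A7 and 7 and 4 in D1E6. In E2E8 they were 9 and 7, and in E2G7 9 and 5. Of all genes, 27.2, 19.9, 27.6 and 18.2% were higher and 22.3, 20.8, 24.4 and 20.2% lower in these clones. In D2A7 the G1/S share lower was 47.6%, with a median log2 difference of -0.12, so a raised share lower was not limited to G2/M genes. A further 16 G1/S genes had 37.5, 37.5, 50 and 31.2% lower and 12.5, 25, 12.5 and 37.5% higher. Of the 8 replication genes, 3 were higher and 1 lower in D2A7, 4 and 1 in D1E6, 3 and 2 in E2E8, and 4 and 1 in E2G7, beside 27.2, 19.9, 27.6 and 18.2% of all genes higher. A further 26 replication genes gave 6 higher and 10 lower in D2A7, 7 and 5 in D1E6, 5 and 13 in E2E8, and 8 and 3 in E2G7. Their share lower was above that of all genes in D2A7 (38.5%) and E2E8 (50%). Their share higher was above it in D1E6 (26.9%) and E2G7 (30.8%). After centring by chromosome the 8 genes gave 1, 2, 0 and 5 higher and 1, 0, 3 and 0 lower, shares that were not counted over all genes. In E2E8 all 8 replication genes had a lower estimate than in E2G7, and 5 of them passed, against 20.2% of all genes lower in that comparison. This was not particular to them, as 47.6% of the G1/S and 27.8% of the G2/M genes were lower there. Of the further G1/S, replication and G2/M genes, 56.2, 53.8 and 55.2% were lower.

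**Figure D5:**
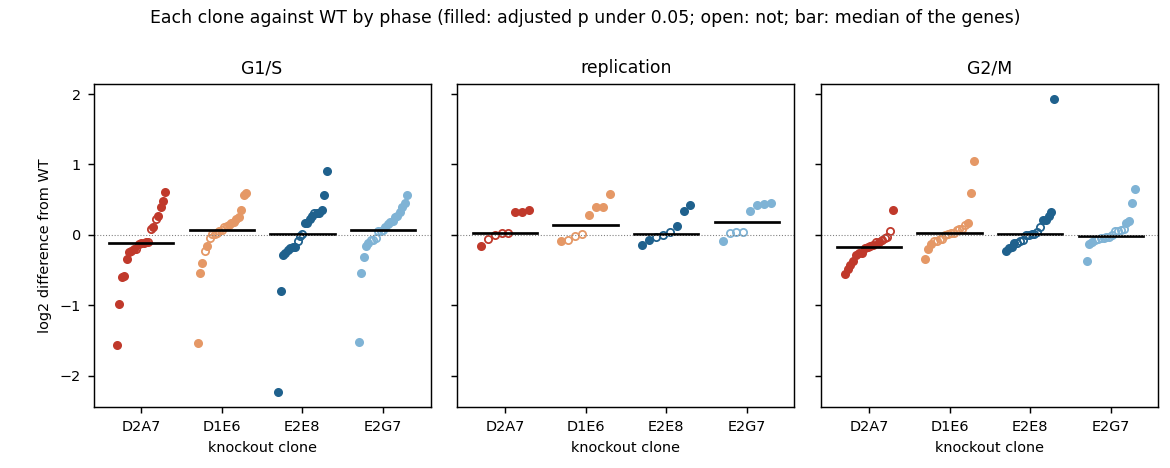
Log2 difference from WT of the 21 G1/S, 8 replication and 18 G2/M genes in each clone (points, filled where the adjusted p was under 0.05), with the median of the genes as a black bar. The G2/M genes of D2A7 lie mostly below 0 with a median of -0.17, while those of the other clones are centred near 0.

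Direct comparisons of clones called 4 of 47 genes in D2A7 against WT (*Ccnd1*, *Ccnd2*, *Cdk6* and *Rbl2*), 4 in D1E6 (*Ccnd2*, *E2f4*, *Ccna1* and *Mad2l1*), 4 in E2E8 (*Ccnd1*, *Ccnd2*, *Rbl2* and *Ccna1*) and 2 in E2G7 (*Ccnd2* and *Ccna1*). The background of called genes was 16.3%, 11%, 16.1% and 9.95%, above the shares of these genes (8.51%, 8.51%, 8.51% and 4.26%) in each. *Ccnd2* was the gene on all 4 lists. Between the *Dnttip1* KO clones, 5 genes were called (*Ccne1*, *Cdk6*, *Mcm2*, *Ccna1* and *Mad2l1*), all lower in D2A7, against a background of 13.1%. Between the *Elmsan1* KO clones 2 were called (*Ccnd2* lower and *Ccna1* higher in E2E8) against 12.5%. These fits treat the 2 libraries of a line as replicates, so their p-values measure the spread between libraries of 1 line.

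The knockouts did not separate from each other. None of the 47 genes was called in *Dnttip1* KO against *Elmsan1* KO mESCs by limma, where 1.52% of genes were, and none had an adjusted p under 0.05, where 0.0341% did. At an unadjusted p under 0.05 there were 6, and voom called 0, and neither share was counted over all genes. A gene that passed in 1 knockout and not in the other was therefore not shown to differ between them. The largest differences were -0.86 for *Ccna1*, -0.46 for *Ccne1* and -0.46 for *Cdkn2b*. For the genes that fell in both knockouts by adjusted p, the difference between knockouts was -0.09 for *Ccnd1* and 0.34 for *Ccnd2*. Over all 8 KO libraries together, 5 of the 47 genes (10.6%) were above both WT libraries in every one (*Cdk2*, *E2f4*, *Rbl2*, *Cdt1* and *Mcm5*) and 7 (14.9%) were below (*Ccnd1*, *Ccnd2*, *Cdk7*, *Mcm7*, *Cdc25c*, *Aurka* and *Bub1b*), against 12.2% and 12.1% of all genes.

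The wider pathway was read from 71 further genes (16 G1/S, 26 replication and 29 G2/M). None was called in either knockout by limma, where 6.51% and 6.43% of all genes were. None was called by voom either, whose share over all genes was not counted. At an unadjusted p under 0.05 there were 6, 10 and 3 in *Dnttip1* KO and 5, 6 and 8 in *Elmsan1* KO. The share of all genes at that p was not counted, so these counts show no excess or lack. By adjusted p, 5 of the 26 replication genes (19.2%) passed in *Dnttip1* KO and 3 (11.5%) in *Elmsan1* KO, beside 9.47% and 10.5% of all genes. Those that rose were *Orc6*, *Gins2*, *Gins3* and *Gins4* in the former and *Orc6*, *Gins2* and *Gins4* in the latter. ORC6 belongs to the origin recognition complex and the GINS proteins to the active helicase, and all 4 genes lie on chromosome 8, with log2 fold changes of 0.26 (*Gins3* in *Elmsan1* KO, which did not pass) to 0.49 beside its medians of 0.35 to 0.37. Of the 16 G1/S genes, the factors *Tfdp2*, *E2f5* and *E2f6* fell in *Dnttip1* KO (-0.31, -0.26 and -0.38) and *Tfdp1*, on chromosome 8, rose in *Elmsan1* KO (0.40). *Gins1*, on chromosome 2, fell in *Dnttip1* KO (-0.25). *Foxm1*, a factor that activates mitotic genes, lies on chromosome 6 and rose in *Elmsan1* KO (0.46), and *Mybl2*, another such factor, fell (-0.37). With an estimated correlation within clones 0 of the 71 passed, where only 57 and 64 of all genes did in the 2 knockouts. Those that had passed were at adjusted p = 0.0913 to 0.416 in *Dnttip1* KO and 0.158 to 0.255 in *Elmsan1* KO.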

How the data were processed

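The FPKM values deposited by the authors for 10 mESC libraries from 5 lines were used. The authors mapped stranded total RNA reads on NCBIM37, used HTSeq for gene counts and derived FPKM. Per the submitters' processing notes, counts were normalized with edgeR 3.16.5 and tested with limma voom in R 3.3.1. The gene lengths and library totals behind FPKM are not given in the sources used here. The methods name GENCODE vM20, whereas 97.2% of the 34591 identifiers are in GENCODE vM1 on NCBIM37, which gave positions and lengths. Multiplied by exon length, FPKM were whole multiples of 1 step (tolerance 0.01) for 98.1 to 98.3% of low values, which gave the fragments per gene and library. They cover counting error only.

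Libraries were scaled by the median ratio over 11270 genes that reached 1 FPKM in every library (factors 0.965 to 1.01), and scaled values are printed. Genes with at least 0.1 FPKM in 2 libraries of a fit were tested on log2(FPKM + 0.1), which understates the change of low genes, with limma 3.58.1 in R 4.3.3 (moderated two-sided test, variance trend, Benjamini-Hochberg over every gene tested). The p-values are from this test unless another fit or test is named beside them. Knockouts were fitted on their own and the WT libraries, and clones on all 10 libraries. The study calls the libraries of a line biological replicates without saying whether they were separate cultures, so p-values measure only the spread between these libraries. On simulated data, 196 to 200 of 200 genes changed by a log2 of 1.5 were recovered per comparison, and 43 to 79 unchanged genes were called. The simulation held only the spread between libraries of a line and no differences between clones. It therefore does not show how smaller changes, or false calls from clone differences, fare in these data. Alternatives were other pseudocounts, filters and call rules, no scaling, chromosome centring (subtracting, in each library, the median log2 difference from WT of the genes on a chromosome), no variance trend, other sets of libraries, a correlation within clones, a replicate block, voom on recovered fragments and leaving out each library. Tables and figures used Python 3.11.15, numpy 2.4.6, pandas 2.3.3 and matplotlib 3.10.9. Elmsan1 was matched through a RefSeq synonym.

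The 47 genes, the further lists and the markers were chosen with earlier results of these data known. Values in every library are given for genes called in any comparison with WT, *Ccna2*, *Cdkn1b* and, per phase, the 2 genes of at least 1 FPKM with the largest mean fold change. The further genes given in detail (*Ccnd3*, *Ccne1*, *Cdk2*, *Mcm5*, *Gmnn* and others) and the 4 promoters were chosen after their values were seen.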

Additional observations from a re-analysis of the deposited data

Results flagged for a closer look

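The level of *Bub1* in E2G7 replicate 2, at 41.6 FPKM, lay far from the other 3 *Elmsan1* KO libraries, with a gap of 0.885 of the range of the 4, above Dixon's 95% limit. It was the 1 such value in 94 groups of 4 libraries, where chance gives about 1 in 20.

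A further 7 differences (6 genes) were noted because clones of the same genotype differed by a direct test. Between the *Dnttip1* KO clones, D2A7 minus D1E6, the log2 differences were -0.83 for *Ccne1*, -0.78 for *Cdk6*, -0.59 for *Mcm2*, -1.23 for *Ccna1* and -0.96 for *Mad2l1*. Between the *Elmsan1* KO clones, E2E8 minus E2G7, they were -0.71 for *Ccnd2* and 1.27 for *Ccna1*. *Mcm2* and *Mad2l1* lie on chromosome 6, whose median differed from WT by -0.08 in D2A7 and 0.42 in D1E6 on the log2 scale.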

How the results depend on the processing

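Of 216 alternative counts of called or passing genes, 184 stayed within 1.5 times the count in the report, and of 4120 alternative values of single genes 3725 kept their direction and side of the threshold, 385 fell short of it and 10 reversed. All 10 reversals came with chromosome centring: *Cdt1* in *Dnttip1* KO (-0.0115), *Cdt1* (-0.0559) and *Mcm5* (-0.0252) in D2A7, *Cdkn1b* in D1E6 (-0.13), E2E8 (-0.00613) and E2G7 (-0.0765), and *E2f4* (-0.20), *Mcm2* (-0.0212), *Mcm5* (-0.23) and *Mad2l1* (-0.0395) in E2E8. By construction, that setting removes what a gene shares with its chromosome.

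With a pseudocount of 1, 1 gene was called in *Dnttip1* KO, *Elmsan1* KO, D2A7 and D1E6, 0 in E2G7, 3 between D2A7 and D1E6 and 0 between E2E8 and E2G7. Restricting to a mean of at least 1 FPKM, which leaves out *Ccnd2* and *Ccna1*, gave 1 in each knockout, 2 in D1E6 and E2E8, and 0 in E2G7 and between E2E8 and E2G7. With only the 2 lines compared, 1 was called in E2G7 and 1 between E2E8 and E2G7, and with voom 1 in E2G7. Chromosome centring left 2 called in D1E6, and 3 with an adjusted p under 0.05 in each knockout. A correlation within clones left 0 and 0 of the latter, and a fit of all 10 libraries 4 in *Elmsan1* KO. The cause of the last was not tested.

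Replicate numbers did not pair the samples, as same-numbered libraries of different lines had correlated deviations of only -0.139 to 0.192. With the replicate block, 2 genes had an adjusted p under 0.05 in *Dnttip1* KO and 4 in *Elmsan1* KO, and the numbers called were unchanged (2, 2, 0, 4, 4, 4, 2, 5 and 2).

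Leaving out 1 library gave 1 to 3 called and 0 to 8 with an adjusted p under 0.05 in *Dnttip1* KO, 2 to 3 and 0 to 6 in *Elmsan1* KO, 0 between the knockouts, 3 to 4 in D2A7, 3 to 5 in D1E6, 4 to 5 in E2E8, 2 in E2G7, 4 to 6 between D2A7 and D1E6 and 1 to 2 between E2E8 and E2G7. *Ccnd2* and *Ccna1* rest on few fragments, and WT, the reference of every comparison with a knockout or clone, is 1 line with 2 libraries.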
